A study of Mus musculus with 4 samples.

Results

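The BCL2 family decides at the mitochondrial outer membrane whether a cell survives or starts apoptosis. The 10 genes described here were taken by their exact symbols from the 53801 genes of the count table: the anti-apoptotic genes Bcl2, Bcl2l1 and Mcl1, the effector genes Bax and Bak1, and the BH3-only genes Bcl2l11, Bid, Bad, Bbc3 and Pmaip1. Each symbol had a single gene ID, and all 10 were among the 17462 genes that passed the filter on low counts.

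In this family, the anti-apoptotic proteins BCL-2, BCL-XL (from Bcl2l1) and MCL-1 bind and restrain the pore-forming effectors BAX and BAK. BH3-only proteins such as BIM (from Bcl2l11), PUMA (from Bbc3) and NOXA (from Pmaip1) carry death signals by occupying the anti-apoptotic proteins or by activating the effectors. In cells of the osteoclast and macrophage lineage, survival depends on cytokine signals such as M-CSF and RANKL, and BIM and BCL-XL are known regulators of the life span of mature osteoclasts.

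The libraries hold total RNA of osteoclast precursor cells, the myeloid precursors of the cells that resorb bone. Their donors were 2 wild type C57BL/6 mice, and the cells are numbered precursor cells 1 and precursor cells 2, taken here as 1 mouse each. Each received DKK1 at 200 ng/ml or PBS for 3 h, which makes 2 DKK1 libraries and 2 PBS libraries in 2 pairs. DKK1 (Dickkopf-1) blocks Wnt co-receptors from outside the cell, and PBS is the buffer control. All groups share strain and genotype; no label gives the age of the mice or the isolation of the cells. Total counts were 53537927 and 46011873 for DKK1 and 53235399 and 41163663 for PBS.

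Transcripts of receptors used here as osteoclast precursor markers were present. Csf1r, Tnfrsf11a, Itgam and Fcgr3 were detected in every library, and their summed level was 2922 and 3713 CPM in DKK1 libraries and 2987 and 3518 CPM in PBS libraries of precursor cells 1 and 2. Csf1r and Itgam also served as monocyte and macrophage markers, and bulk RNA does not show whether single cells carried the whole set. CPM here are counts scaled to library size with TMM factors. Transcripts listed as markers of other blood cells were present as well. The 7 neutrophil markers summed to 3374 and 6076 CPM with DKK1 and to 3356 and 5832 CPM with PBS. Of these, Ly6g had 4.63 and 8.05 CPM with DKK1 and 4.98 and 8.95 CPM with PBS. The 6 B cell markers summed to 254 and 149 CPM with DKK1 and to 381 and 162 CPM with PBS. Which cells held these transcripts was not tested. In such bulk samples, fewer cells of a type and less RNA per cell cannot be told apart.

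Among the 10 members, Mcl1 was the most abundant transcript per length and Bcl2 the least abundant, in every library. On the authors' FPKM scale, which divides by gene length, Mcl1 stood at 111 and 197 FPKM in the DKK1 libraries and at 115 and 195 FPKM in the PBS libraries of precursor cells 1 and 2. Bcl2 stood at 0.994 and 0.667 FPKM with DKK1 and at 0.900 and 0.371 FPKM with PBS. Between these ends, the mean over the 4 libraries was 47.7 ± 5.17 FPKM for Bax, 46.8 ± 7.66 for Bak1, 11.6 ± 3.79 for Bcl2l1, 10.6 ± 1.86 for Bad, 8.79 ± 2.39 for Bid, 6.13 ± 1.70 for Bcl2l11, 5.16 ± 0.788 for Bbc3 and 2.08 ± 0.341 for Pmaip1 (SD, n = 4 libraries of both treatments and both mice). The neighbours Bax and Bak1 changed places between precursor cells 2 and 1, and the order of Bcl2l1, Bad and Bid and that of Bcl2l11 and Bbc3 also varied between libraries, so these neighbours did not differ beyond their spread.

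Summed by role, FPKM of the 3 anti-apoptotic genes came to 125 and 212 in DKK1 libraries and to 122 and 208 in PBS libraries of precursor cells 1 and 2. The 2 effector genes summed to 86.6 and 97.3 FPKM with DKK1 and to 95.1 and 99.1 FPKM with PBS, and the 5 BH3-only genes to 31.4 and 30.9 FPKM with DKK1 and to 34.0 and 34.7 FPKM with PBS. The anti-apoptotic sum thus stood higher in both libraries of precursor cells 2, while the BH3-only sums lay close together. Mcl1 made up most of the anti-apoptotic sum, with 88.5% and 93.0% in DKK1 libraries and 94.3% and 93.7% in PBS libraries. Bcl2l1 made up 10.7% and 6.73% of it with DKK1 and 4.92% and 6.14% with PBS. Survival genes outside the 10 members, such as the near-identical copies of A1, are not in this sum. The A1 copy Bcl2a1b had 124 and 132 CPM with DKK1 and 132 and 131 CPM with PBS, over 817 exonic bases. Bcl2a1a had 50.2 and 50.6 CPM with DKK1 and 51.2 and 45.7 CPM with PBS, over 819 exonic bases. Bcl2a1d had 47.8 and 61.8 CPM with DKK1 and 42.3 and 58.5 CPM with PBS, over 863 exonic bases. Mcl1 had 396 and 793 CPM with DKK1 and 412 and 784 CPM with PBS, over 3418 exonic bases. Per exonic base, these A1 copies together stood above Mcl1 in every library, so Mcl1 leads only among the 10 members.

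**Figure D1:**
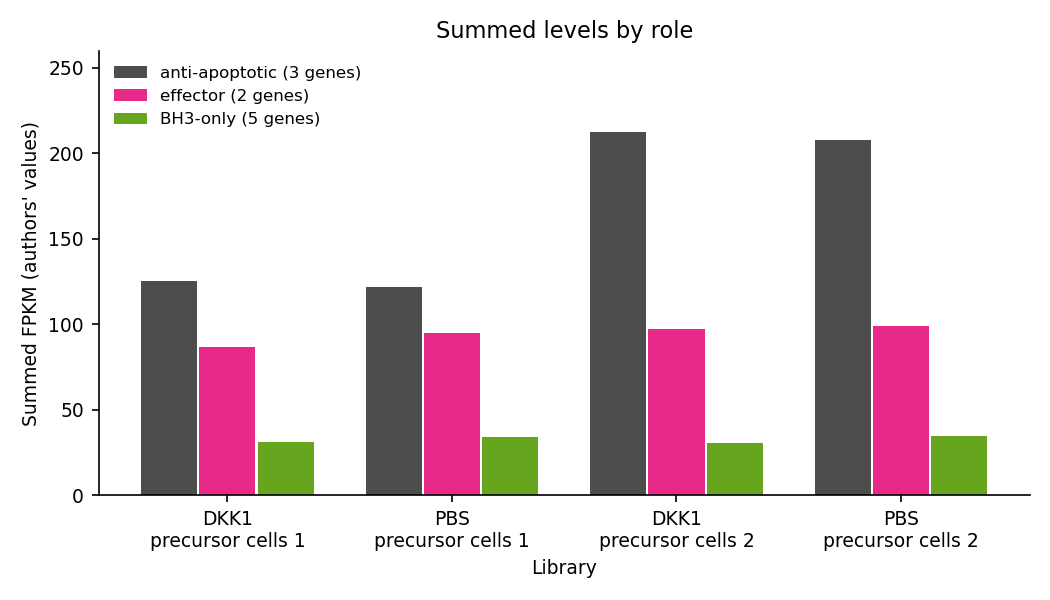
Summed level of the anti-apoptotic, effector and BH3-only genes among the 10 members in each library, in the authors' FPKM (y axis, from 0). There is 1 bar per role and library and no error bar. The anti-apoptotic bar reaches 212 and 208 FPKM in precursor cells 2 and 125 and 122 FPKM in precursor cells 1, with DKK1 and PBS, while the BH3-only bars lie between 30.9 and 34.7 FPKM.

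The first comparison asked whether DKK1 changes these genes within 3 h. Of the 10 members, 0 passed edgeR's quasi-likelihood test with the mice as pairs (Benjamini-Hochberg adjusted p under 0.05 over all tested genes, two-sided, n = 2 pairs), beside 9 of 17462 genes overall (0.0515%). At an unadjusted p under 0.05, 1 member was found (Bcl2l1), beside 4.47% of all tested genes. DESeq2 and limma-voom also called 0 members, with 0 and 1 at an unadjusted p under 0.05. The members' median log2 change was -0.07, beside -0.0015 over all tested genes. The median size of the change in the fit, without its sign, was 0.29 beside 0.12. Within the pairs, this size was 0.24 beside 0.15 in precursor cells 1 and 0.07 beside 0.16 in precursor cells 2. The 2 pairs leave 1 residual degree of freedom per gene, and edgeR moderates each gene's error estimate with that of other genes. Intervals are wide, and changes that differ between mice count as error.

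**Figure D2:**
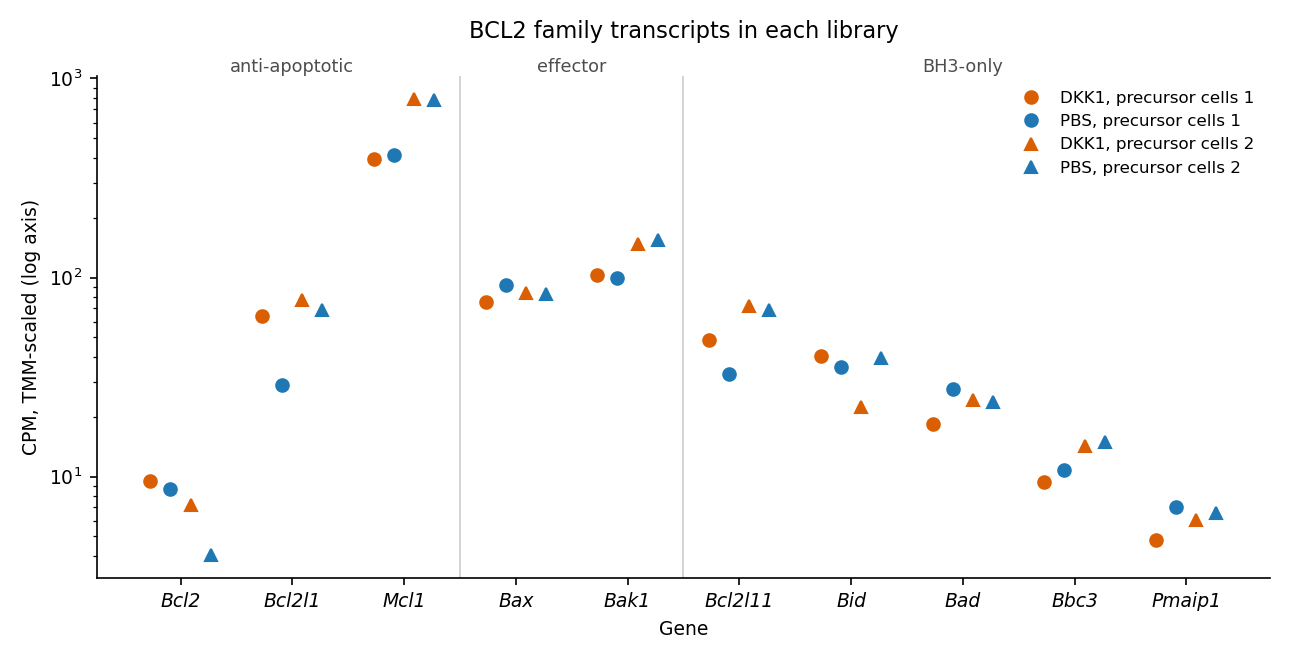
Level of each member (TMM-scaled CPM, log axis) in the 4 libraries, with DKK1 in orange, PBS in blue, precursor cells 1 as circles and precursor cells 2 as triangles, ordered by role. Mcl1 lies between 396 and 793 CPM, and the PBS library of precursor cells 1 stands apart for Bcl2l1 at 28.9 CPM.

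Among the anti-apoptotic genes, Bcl2l1 had 64.0 and 77.1 CPM in the DKK1 libraries of precursor cells 1 and 2, against 28.9 and 69.1 CPM in the PBS libraries (read counts of 3634 and 3353 against 1632 and 2670). The PBS library of precursor cells 1 was low by itself, and the treatment groups overlapped. Within precursor cells 1 the ratio of DKK1 over PBS was 2.22 (95% counting interval 2.09 to 2.35), and within precursor cells 2 it was 1.12 (1.06 to 1.18). Such intervals cover counting error only. The paired edgeR fit gave a log2 change of 0.64 (95% CI 0.09 to 1.19, unadjusted p = 0.0294, adjusted p = 0.959), which was not called. Bcl2l1 (ENSMUSG00000007659) lies on chromosome 2 from 152780668 to 152831728 on mm10 (GRCm38) and shares no exon with another gene model.

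Bcl2, the founding survival gene of the family, had 9.50 and 7.20 CPM in DKK1 libraries of precursor cells 1 and 2, against 8.64 and 4.04 CPM in PBS libraries (539 and 313 counts against 488 and 156). The PBS library of precursor cells 2 was the lowest, and the groups overlapped. The ratio of DKK1 over PBS was 1.10 (95% counting interval 0.971 to 1.25) in precursor cells 1 and 1.78 (1.47 to 2.18) in precursor cells 2, and the paired log2 change was 0.39 (95% CI -0.15 to 0.93, edgeR adjusted p = 0.959). Bcl2 was therefore the reverse of Bcl2l1 in which mouse carried the larger ratio, a difference that could not be tested with 1 library per treatment and mouse. Bcl2 (ENSMUSG00000057329, chromosome 1, 106538178 to 106714274) shares 558 exonic bases with an antisense model, D630008O14Rik, which had at most 32 counts.

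Mcl1, a short-lived survival protein whose level follows its synthesis closely, had 396 and 793 CPM with DKK1 and 412 and 784 CPM with PBS in precursor cells 1 and 2. The treatment groups overlapped, and the split ran between the mice. Its paired log2 change with DKK1 was -0.02 with a 95% CI of -0.13 to 0.09 (edgeR adjusted p = 0.984), the narrowest interval of the 10 members. Mcl1 (ENSMUSG00000038612, chromosome 3, 95658788 to 95663176) shares no exon with another model.

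The effectors BAX and BAK form the pores that release cytochrome c. Bax had 75.3 and 83.7 CPM with DKK1, against 91.4 and 82.7 CPM with PBS, a log2 change of -0.13 (95% CI -0.36 to 0.09). Bak1 had 102 and 147 CPM with DKK1, against 99.96 and 155 CPM with PBS, a log2 change of -0.02 (95% CI -0.18 to 0.14). For both, the treatment groups overlapped and edgeR's adjusted p was 0.959 and 0.992. Bax (ENSMUSG00000003873) lies on chromosome 7 from 45461697 to 45466898 and Bak1 (ENSMUSG00000057789) on chromosome 17 from 27019810 to 27029009. Models that share their exons held few counts, and the genes' own share of the summed counts was 99.9% and 99%.

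Of the BH3-only genes, Bcl2l11 had 48.5 and 72.0 CPM with DKK1, against 32.6 and 68.6 CPM with PBS (2753 and 3129 counts against 1842 and 2653). It encodes BIM, which can bind every anti-apoptotic member of the family. The PBS library of precursor cells 1 was the lowest, as for Bcl2l1, and the groups overlapped. The ratio of DKK1 over PBS was 1.49 (95% counting interval 1.40 to 1.58) in precursor cells 1 and 1.05 (0.996 to 1.10) in precursor cells 2, and the paired log2 change was 0.31 (95% CI -0.01 to 0.64, edgeR adjusted p = 0.959). Bcl2l11 (ENSMUSG00000027381) lies on chromosome 2 from 128126038 to 128162547, with no model sharing its exons.

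Bid, whose protein links death receptors to the mitochondria once caspase-8 has cut it, had 40.2 and 22.3 CPM with DKK1, against 35.6 and 39.4 CPM with PBS. The DKK1 library of precursor cells 2 stood alone at the low end. The ratio of DKK1 over PBS was 1.13 (95% counting interval 1.07 to 1.20) in precursor cells 1 and 0.566 (0.521 to 0.613) in precursor cells 2, so the pairs went opposite ways, and the paired log2 change was -0.28 (95% CI -0.85 to 0.28, edgeR adjusted p = 0.966). Bid (ENSMUSG00000004446, chromosome 6, 120891930 to 120916853) shares 628 exonic bases, 17.7% of its length, with Bcl2l13, so its counts are uncertain. Bcl2l13 had 2961 and 1957 counts with DKK1 and 2808 and 1747 with PBS, and did not share the low DKK1 library; summed with it, the log2 change was -0.10.

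Bad, which is held inactive by phosphorylation downstream of growth factors, had 18.3 and 24.3 CPM with DKK1, against 27.6 and 23.7 CPM with PBS. The pairs went opposite ways here too, with ratios of DKK1 over PBS of 0.664 (95% counting interval 0.613 to 0.718) in precursor cells 1 and 1.02 (0.936 to 1.12) in precursor cells 2, and a paired log2 change of -0.29 (95% CI -0.70 to 0.12, edgeR adjusted p = 0.959). Bad (ENSMUSG00000024959, chromosome 19, 6941861 to 6951899) shares 524 exonic bases with Gpr137, and its own share of the summed counts was 55.5%, so its counts are uncertain as well. Summed with Gpr137, the log2 change was -0.16.

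Bbc3 and Pmaip1 are classical p53 targets, and neither passed the test. Within the pairs of precursor cells 1 and 2, Bbc3 differed by -0.19 and -0.06 and Pmaip1 by -0.54 and -0.12 on the log2 scale. Bbc3 had 9.38 and 14.2 CPM with DKK1, against 10.7 and 14.8 CPM with PBS (log2 -0.13, 95% CI -0.46 to 0.21, edgeR adjusted p = 0.970). Pmaip1 had 4.81 and 6.03 CPM with DKK1, against 7.03 and 6.54 CPM with PBS (log2 -0.35, 95% CI -0.85 to 0.15, edgeR adjusted p = 0.959). Pmaip1 was the 1 member of 10 whose DKK1 and PBS libraries did not overlap, beside 16.2% of all tested genes. Bbc3 (ENSMUSG00000002083) lies on chromosome 7 from 16308393 to 16318205, and neither it nor Pmaip1 (ENSMUSG00000024521) shares exons with another model.

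The sign of the change with DKK1 was the same in both pairs for 5 of the 10 members (Bcl2, Bcl2l1, Bcl2l11, Bbc3 and Pmaip1), beside 51.7% of all tested genes. An absolute log2 difference of at least 1 was found for 1 member in precursor cells 1 (Bcl2l1, 1.15; 8.17% of all tested genes) and for 0 in precursor cells 2 (9.66%). The authors' deposited tables test each pair as 1 library against 1. In precursor cells 1, the authors' deposited table calls 1 member, Bcl2l1, with a log2 ratio of 1.14 and an FDR of 5.37e-48, beside 0.921% of the genes listed there. In precursor cells 2, the authors' deposited table gives Bcl2l1 a log2 ratio of 0.16 with an FDR of 0.135 and calls 0 members, beside 0.987% of the genes listed. At an FDR under 0.05 without the fold threshold, the authors' deposited table for precursor cells 1 holds Bcl2l1, Bcl2l11, Bad, Pmaip1 and Bax (5 of 10, beside 19% of listed genes), and that for precursor cells 2 holds Bid and Bcl2 (2 of 10, beside 16.7%).

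**Figure D3:**
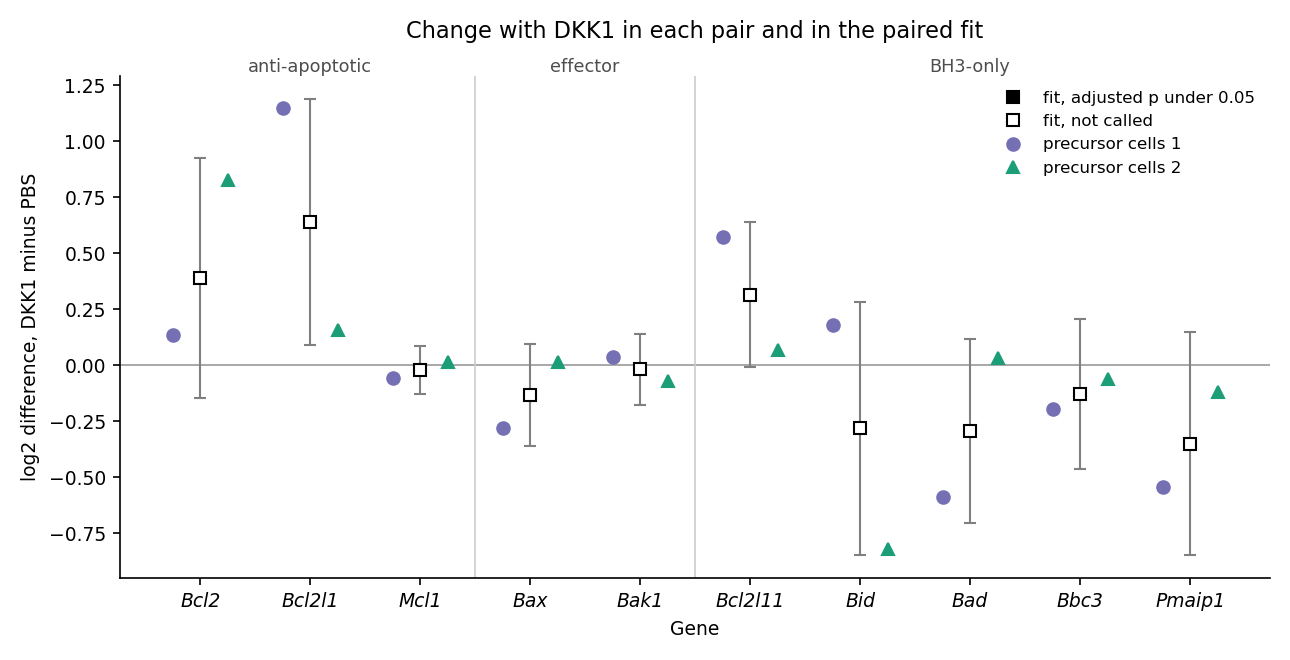
Log2 difference of DKK1 minus PBS (y axis) for each member in precursor cells 1 (circles), in precursor cells 2 (triangles) and in the paired edgeR fit (squares with 95% CI, open where not called). No square is filled, and the circles and triangles lie far apart for Bcl2l1 (1.15 and 0.16), Bcl2 (0.14 and 0.83) and Bid (0.18 and -0.82).

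Markers of other blood cells also differed between the treatments within precursor cells 1. All 6 B cell markers were lower in the DKK1 library than in the PBS library there (summed 254 against 381 CPM), as were 3 of 6 in precursor cells 2 (149 against 162 CPM), with 0 called by edgeR and none at 0 in any library. The 4 erythroid markers summed to 46.7 and 84.6 CPM with DKK1, against 67.6 and 108 CPM with PBS, the 4 mast cell and basophil markers to 8.83 and 21.8 CPM with DKK1, against 14.4 and 29.2 CPM with PBS, and the 3 stromal markers to 75.4 and 90.8 CPM with DKK1, against 52.3 and 95.2 CPM with PBS. Their part in the values of Bcl2, Bcl2l1, Bcl2l11, Bad and Pmaip1 was not tested.

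The second comparison set precursor cells 2 against precursor cells 1, with both treatments in each. In it Mcl1, Bcl2l11, Bak1 and Bbc3 rose, by 1.45-fold to 1.95-fold, and 0 members fell. These are 1 anti-apoptotic gene, 1 effector gene and 2 BH3-only genes, so the calls did not follow a single role. They make 4 of 10 members called by edgeR at an adjusted p under 0.05, beside 5913 of 17462 genes (33.9%), with 4 of 10 called higher, beside 17.9%, and 0 of 10 called lower, beside 15.9%. No preparation was replicated, so the test compares cells of these 2 mice. Its error estimate rests on how their difference varied between the treatments, moderated by edgeR with the variability of other genes. The members' share called was near that of all tested genes.

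Mcl1 had 793 and 784 CPM in precursor cells 2, against 396 and 412 CPM in precursor cells 1 (DKK1, then PBS library in each). Both libraries of precursor cells 2 lay above both of precursor cells 1, with a fold of 1.95 (95% CI 1.81 to 2.11, edgeR adjusted p = 5.24e-05). Bcl2l11 had 72.0 and 68.6 CPM in precursor cells 2, against 48.5 and 32.6 CPM in precursor cells 1, a fold of 1.76 (95% CI 1.40 to 2.20, edgeR adjusted p = 0.00617). The groups did not overlap, and the PBS library of precursor cells 1 was again the lowest. Bak1 had 147 and 155 CPM in precursor cells 2, against 102 and 99.96 CPM in precursor cells 1, a fold of 1.49 (95% CI 1.34 to 1.67, edgeR adjusted p = 0.00159).

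Bbc3 had 14.2 and 14.8 CPM in precursor cells 2, against 9.38 and 10.7 CPM in precursor cells 1, a fold of 1.45 (95% CI 1.15 to 1.83, edgeR adjusted p = 0.0295). Its groups did not overlap either, but DESeq2 gave it an adjusted p of 0.102, which ends the call. Bcl2l1 and Bcl2 lay at the threshold. Bcl2l1 had 77.1 and 69.1 CPM in precursor cells 2, against 64.0 and 28.9 CPM in precursor cells 1 (fold 1.67, 95% CI 1.14 to 2.44, edgeR adjusted p = 0.0504), and was called with DESeq2's size factors in edgeR (adjusted p = 0.0495). Bcl2 had 7.20 and 4.04 CPM in precursor cells 2, against 9.50 and 8.64 CPM in precursor cells 1 (fold 0.617, 95% CI 0.422 to 0.902, edgeR adjusted p = 0.0592), and was called lower with upper-quartile scaling in edgeR (adjusted p = 0.0482). With a filter of at least 1 CPM in every library, 6 of 10 members were called, beside 5474 of the 12562 genes tested there.

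Bax, Bid, Bad and Pmaip1 were not called, and their libraries overlapped between the mice. Their log2 differences, precursor cells 2 over 1, were 0.0033 for Bax (95% CI -0.22 to 0.23), -0.34 for Bid (-0.90 to 0.23), 0.09 for Bad (-0.32 to 0.50) and 0.10 for Pmaip1 (-0.40 to 0.60). Over the family, the libraries of the mice did not overlap for 6 of 10 members, beside 69% of all tested genes: 5 stood higher in both libraries of precursor cells 2 (33.7% of all tested genes) and 1, Bcl2, lower in both (35.3%). Bak1 and Bax, the effectors that can stand in for each other, thus differed in this comparison as measured, 0.58 on the log2 scale against 0.0033, a difference between genes that was not tested.

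**Figure D4:**
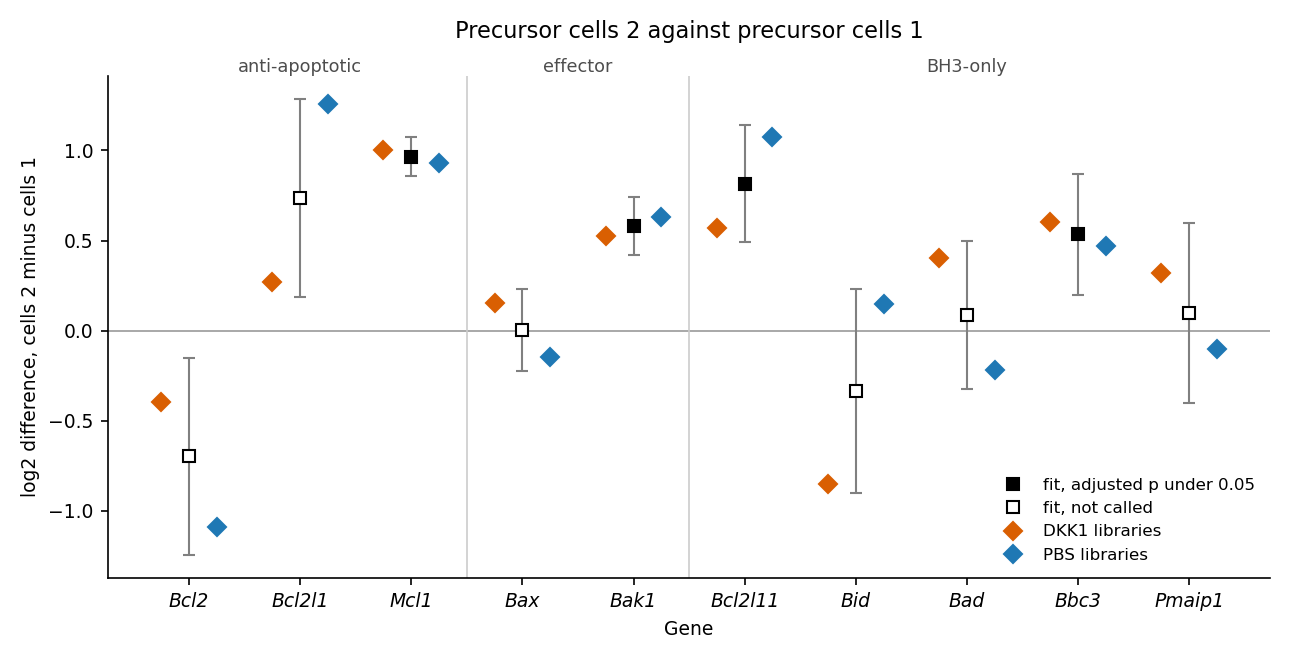
Log2 difference of precursor cells 2 minus precursor cells 1 (y axis) for each member in the DKK1 libraries (orange), in the PBS libraries (blue) and in the edgeR fit (squares with 95% CI, filled where the adjusted p was under 0.05). Mcl1, Bak1, Bcl2l11 and Bbc3 are filled, with both diamonds above 0, while Bax, Bid, Bad and Pmaip1 have a diamond on each side of 0.

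The bases before the start sites of 3 genes that rose between the mice, and of Bcl2l1, which had the largest difference within a pair, are shown to let their sequence be compared. They are RefSeq's 250 bases upstream of an annotated start on GRCm38.p6 (1 of several for Bcl2l11, Bbc3 and Bcl2l1), read 5′ to 3′ on the gene's strand: chr3:95658471-95658720 (plus strand) for Mcl1, chr2:128125788-128126037 (plus strand) for Bcl2l11, chr7:16309333-16309582 (plus strand) for Bbc3 and chr2:152831729-152831978 (minus strand) for Bcl2l1. None of these windows holds a GENCODE exon; that of Bak1 and those of the other Bcl2l1 starts overlap exons and are not shown. The window of Bbc3 lies within the span GENCODE gives this gene, since another transcript starts upstream of it. Capitals mark each match, on either strand, to any of 7 motifs.
Mcl1: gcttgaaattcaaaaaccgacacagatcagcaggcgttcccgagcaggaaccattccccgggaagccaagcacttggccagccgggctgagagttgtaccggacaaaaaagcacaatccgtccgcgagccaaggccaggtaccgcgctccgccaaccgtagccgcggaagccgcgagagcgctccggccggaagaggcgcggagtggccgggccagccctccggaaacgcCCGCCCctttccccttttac
Bcl2l11: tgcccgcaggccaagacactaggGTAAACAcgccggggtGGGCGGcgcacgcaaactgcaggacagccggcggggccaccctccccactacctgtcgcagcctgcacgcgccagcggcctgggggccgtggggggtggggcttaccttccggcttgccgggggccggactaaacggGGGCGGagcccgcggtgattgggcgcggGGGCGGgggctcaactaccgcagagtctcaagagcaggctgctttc
Bbc3: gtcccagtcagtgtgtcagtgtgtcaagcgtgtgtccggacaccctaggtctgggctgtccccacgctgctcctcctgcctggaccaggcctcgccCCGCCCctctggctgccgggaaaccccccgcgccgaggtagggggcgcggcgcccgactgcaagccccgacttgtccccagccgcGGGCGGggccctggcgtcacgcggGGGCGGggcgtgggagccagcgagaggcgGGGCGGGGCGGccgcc
Bcl2l1: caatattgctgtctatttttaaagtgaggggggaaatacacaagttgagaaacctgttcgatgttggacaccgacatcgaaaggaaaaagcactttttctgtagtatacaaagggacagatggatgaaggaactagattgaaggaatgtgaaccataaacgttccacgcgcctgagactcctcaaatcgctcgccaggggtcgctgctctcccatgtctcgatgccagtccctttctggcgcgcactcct

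The motifs searched were the interferon gamma-activated site TTCNNNGAA, the interferon-stimulated response element, the cyclic AMP response element TGACGTCA, the E-box CACGTG, the FOXO site TGTTTAC, the GC box GGGCGG and the p53 decamer. The window of Bcl2l11 holds 1 FOXO match, which 3.17% of all 32851 such windows hold; the window of its other start holds none, while that of another Bbc3 start (16310011 to 16310260) holds 1. GC boxes, which 32.7% of windows hold, number 1 in the window of Mcl1, 3 in that of Bcl2l11 and 5 in that of Bbc3, where a pair of them overlap. In the 4 windows there is no match to the interferon gamma-activated site (7.02% of all windows), the interferon-stimulated response element (2.98%), the cyclic AMP response element (1.55%), the E-box (6.02%) or the p53 decamer (7.13%), and the window of Bcl2l1 holds no match at all. No window of Pmaip1 was searched. Of the other members' windows not shown, that of a further Bbc3 start (16310181 to 16310430) holds 1 E-box. The window of Bax holds 1 E-box and 1 match to the p53 decamer. Matches are to letters only, and the window shows only this stretch.

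Cell type and response markers differed between the mice alongside these genes. All 7 type I interferon-stimulated genes were called higher in precursor cells 2 by edgeR, with a summed level of 6584 and 6618 CPM there against 1252 and 1132 CPM in precursor cells 1 (DKK1, then PBS). All 7 neutrophil markers were also called higher (6076 and 5832 CPM against 3374 and 3356 CPM), and all 6 B cell markers lower (149 and 162 CPM against 254 and 381 CPM). Of 8 monocyte and macrophage markers, 4 were called higher and 2 lower. Lyz2 alone, one of the 2, had 14685 and 14288 CPM in precursor cells 2, against 24782 and 24909 CPM in precursor cells 1, and the other 7 summed to 7058 and 6854 CPM in precursor cells 2, against 6269 and 6314 CPM in precursor cells 1. No gene of these 4 lists was at 0 in any library. Their part in the differences of Mcl1, Bcl2l11, Bak1, Bbc3, Bcl2 and Bcl2l1 was not tested.

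Around the family, 58 further apoptosis genes in 7 lists were read from the same fits, of which 52 were tested. With DKK1, 0 of the 52 were called by edgeR, and 5 had an unadjusted p under 0.05 (median log2 change -0.02), beside 0.0515% called and 4.47% at an unadjusted p under 0.05 among all tested genes. DESeq2 and limma-voom called 0 as well. Among the genes with the 2 smallest p of each list were Bnip3l (log2 0.18) and Bmf (-0.28) of the other BCL2 family genes, Diablo (-0.37) and Cycs (0.14) of mitochondrial release, Casp9 (0.73) of the caspases, and Xiap (-0.20) and Birc6 (0.10) of the inhibitors of apoptosis proteins. In the other lists they were Tnfrsf1a (-0.07) and Tnfrsf10b (-0.46) of the death receptors, Trp53 (-0.22) and Foxo1 (-0.28) of the transcription factors, and Fbxw7 (-0.51) and Usp9x (0.11) of the genes for turnover of MCL-1 and BIM. Casp9, the initiator caspase of the mitochondrial pathway, had 42.0 and 49.5 CPM with DKK1, against 35.2 and 20.3 CPM with PBS. The PBS library of precursor cells 2 stood apart. Diablo had 1369 and 859 counts with DKK1, against 1529 and 1161 with PBS. It shares 1193 exonic bases with Gm49027, which went the other way, with 172 and 300 counts with DKK1, against 43 and 1 with PBS. The change of Diablo is therefore uncertain.

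Between the mice, 30 of the 52 were called by edgeR (57.7%), 21 higher and 9 lower in precursor cells 2, beside 33.9% of all tested genes. Bcl2l14, among the 21, passed the filter on low counts only through precursor cells 2. Among caspases, 5 of 6 rose. Casp8, the initiator caspase of death receptors, and Casp2 were among them, with log2 changes of 0.66 and 0.82. Of the inhibitors of apoptosis proteins, 2 of 6 rose, Naip5 (1.15) and Naip2 (0.57), which are best known as inflammasome sensors. Among death receptors and adaptors, Cflar (0.60), which encodes the caspase-8 inhibitor c-FLIP, Tnfrsf1a (0.28) and Ripk1 (0.27) rose and the death receptor gene Fas fell (-0.99), 4 called of 7.

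Of the 7 tested transcription factors and p53 feedback genes, 3 rose and 3 fell in precursor cells 2. Cdkn1a, the p21 gene and a p53 target, had 258 and 272 CPM in precursor cells 2, against 105 and 107 CPM in precursor cells 1 (log2 1.32, edgeR adjusted p = 4.02e-05). Ddit3 (0.89) and Foxo3 (0.47) rose as well, while E2f1 (-0.44), Trp53 (-0.26), which encodes p53 itself, and its target Mdm2 (-0.23) fell. Trp53 and Mdm2 were added to those the naming rule took after their values were seen. In mitochondrial release, Cycs rose (0.52) and Vdac1 (-0.59), Vdac2 (-0.27) and Aifm1 (-0.37) fell, 4 called of 9. Of 6 genes for turnover of MCL-1 and BIM protein, the ubiquitin ligase components Fbxw7 (0.80) and Rnf115 (0.29) rose, and Huwe1 (-0.30), a ligase that marks MCL-1 for destruction, and Usp9x (-0.43), which removes that mark, fell.

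Of 11 tested genes among the other BCL2 family genes, 5 rose and 0 fell, beside 17.9% called higher and 15.9% called lower among all tested genes. They were led by Bmf (log2 0.72), a BH3-only gene, Bcl2a1d (0.42), Bcl2l14 and Bnip3l (0.27). For Bcl2l14 the libraries of precursor cells 2 held 38 and 40 counts, against 0 and 0 for precursor cells 1. With a floor of 3 counts per library, this is at least 18.01-fold higher. Bcl2l14 passed the filter on low counts only through precursor cells 2, so its place among the 5 is no support for a rise. Bcl2a1a, Bcl2a1b and Bcl2a1d are near-identical copies of the survival gene A1, so the split of counts among them is uncertain. Bcl2a1a (log2 -0.07, edgeR adjusted p = 0.568) and Bcl2a1b (0.04, edgeR adjusted p = 0.668) were not called, and Bcl2a1b held the most counts of these copies. Ripk1, Ddit3, Naip5, Diablo and Cycs also share exons or sequence with other models, and their own share of the summed counts was 63.8%, 30.3%, 50%, 78.3% and 86.2%.

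**Figure D5:**
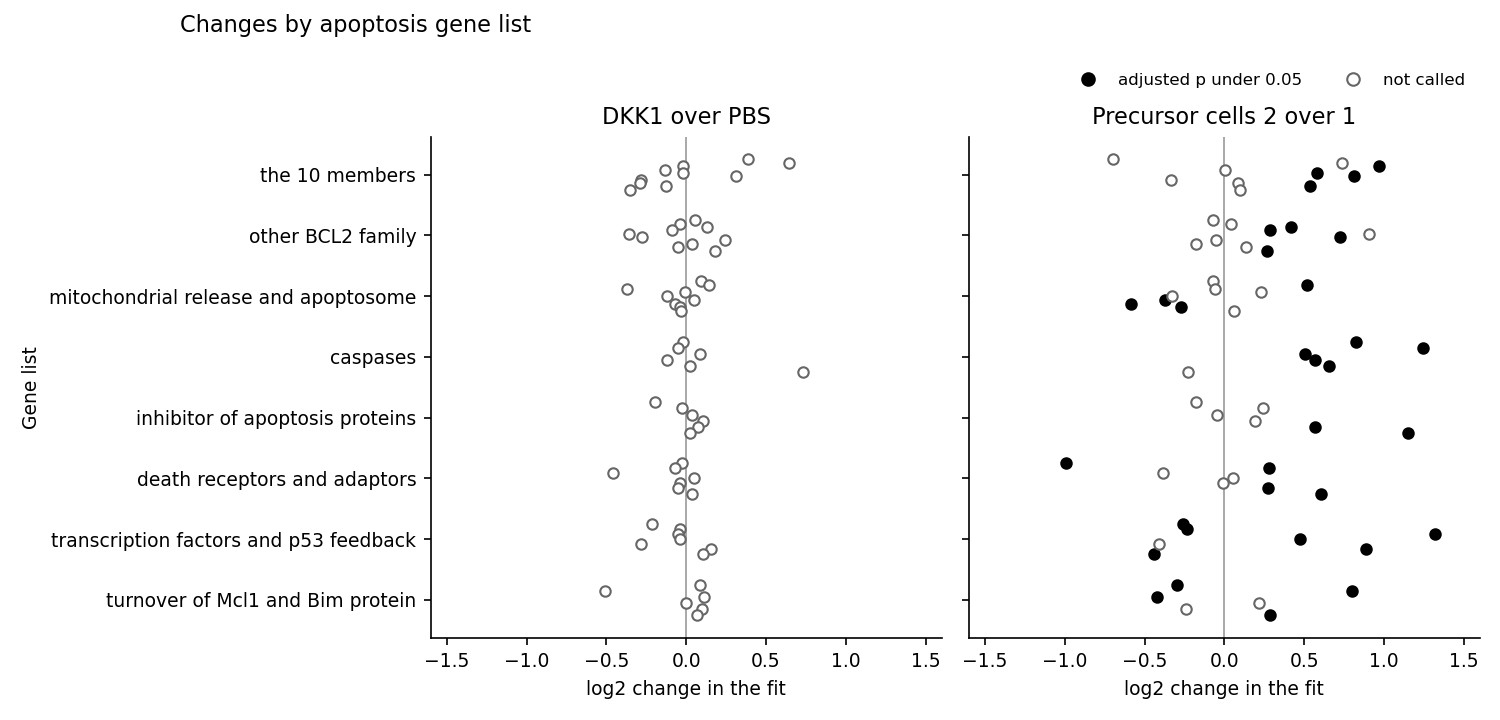
Log2 change in the edgeR fit (x axis) of the 10 members and of the tested genes of 7 wider apoptosis lists (rows), for DKK1 over PBS on the left and precursor cells 2 over 1 on the right, with filled points where the adjusted p was under 0.05. Bcl2l14, at 0 in precursor cells 1, is left out. No point is filled on the left, and 5 of 6 caspases are filled to the right of 0 on the right.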

How the data were processed

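The authors deposited raw counts per gene for each library. Per the submitters' processing notes, fastp and HISAT2 were used with mm10; for the counting program, annotation and strand, nothing is given in the sources used here. The authors' deposited tables, 1 per pair, give FPKM, log2 ratios of DKK1 over PBS and p-values with FDR from a test that is not stated. FPKM served only for levels between genes.

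Genes were filtered with filterByExpr and tested with edgeR 4.0.16 (quasi-likelihood, TMM scaling, legacy off, R 4.3.3) on all 17462 genes, with terms for precursor cells and treatment. Tests are two-sided and adjusted by the Benjamini-Hochberg method (threshold 0.05). Libraries were paired because the labels name 2 mice and give both treatments of precursor cells 1 and of precursor cells 2; paired libraries' deviations from group means correlated at 0.869 across 17462 genes. Log2 differences within a pair use a prior count of 2. DESeq2 1.42.0, limma-voom (limma 3.58.1), scalings, filters and left-out libraries were alternatives. Counting intervals are exact binomial at 95%.

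Positions and shared exons come from GENCODE M21 (GRCm38), on either strand; BLAST 2.17.0 searched for near-identical transcripts (identity of 95% or more, spanning 100 bases or more and 50% of the shorter one). Members and lists were chosen with earlier results of these data known. All members are named; for each wider list and comparison the rule takes up to 4 called genes with the smallest p, or 2 where none was called, and some of these genes are not reported here. The fit was tested on simulated data.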

Additional observations from a re-analysis of the deposited data

Results flagged for a closer look

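Some genes had changes with DKK1 of opposite sign in the 2 mice, 1 pair each, and the difference between the pairs was not tested because no residual degree of freedom is left for it. The log2 differences, DKK1 minus PBS, in precursor cells 1 and 2 were 0.18 and -0.82 for Bid, -0.59 and 0.0339 for Bad, -0.279 and 0.0161 for Bax, -0.0578 and 0.0155 for Mcl1 and 0.0353 and -0.0714 for Bak1. Among the wider apoptosis genes named with DKK1 they were 0.11 and -1.44 for Tnfrsf10b, which had at most 105 counts, and 0.21 and -0.0020 for Birc6. Of the 52 wider genes tested, 32 had the same sign in both pairs. The sign differed between the pairs for 5 of the 10 members, while 51.7% of all tested genes had the same sign in both pairs.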

How the results depend on the processing

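With DKK1, 0 members and 0 of the wider apoptosis genes were called under each of the 12 alternatives run, and each member kept its sign under every scaling, tool and summed count. Over all genes, 9 were called, against 5 with upper-quartile scaling, 0 without the filter (911 with an unadjusted p under 0.05), 46 with DESeq2, 2 with limma-voom, 3 with legacy quasi-likelihood and 0 with no replicate block (116 with an unadjusted p under 0.05). Leaving out any 1 library without the block also gave 0, in fits that leave the mice unbalanced. The cause of these shifts was not tested. Without the pairing, the log2 change of Bcl2l1 was 0.53 in place of 0.64 (adjusted p = 1.00), and no member changed its call. With 1 mouse left out, values are those of the other pair, from 0.16 to 1.15 for Bcl2l1, 0.14 to 0.83 for Bcl2 and -0.82 to 0.18 for Bid.

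Between the mice, the count over all genes was 5913, against 3509 without the filter and 3194 to 4574 with 1 library left out and no treatment term, 3194 without DKK1 2 and 3346 without PBS 2. The members called were 4 of 10, against 2 without the filter, beside 3509 of 26361 genes. With the stricter filter they were 6, beside 5474 of 12562 genes. The wider genes called were 30, against 18 without the filter, which tests more genes, and 13 to 20 with 1 library left out: 18 without PBS 1 or DKK1 2, and 13 without PBS 2. Mcl1, Bcl2l11 and Bak1 kept their call under the 5 alternatives with a test run on single members. They did not all keep it without the filter, where 2 members were called. The value of Bax turned to -0.0472 with upper-quartile scaling, which moved the median of all genes to -0.05. Depth limits Bcl2, Bbc3 and Pmaip1 most, with 156 to 619 counts a library.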
